A study of Mus musculus with 19 samples.

Results

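SPEN is a large nuclear protein that binds RNA and recruits transcriptional corepressors; it is known as a corepressor partner in Notch signalling and for its part in silencing of the X chromosome. The peaks described here are the SPEN ChIP-seq peaks at promoters. They were all peaks on chromosomes 1 to 19 whose annotation in the authors' deposited tables placed them at a promoter and transcription start site (TSS) and whose detailed annotation did not name a CpG island. Of 80795 peaks in the 19 libraries, 63839 lay on chromosomes 1 to 19 and 2406 of these met the rule. Of the 2406 peaks, 2349 came from the 16 SPEN libraries, and 2133 of those shared no base with any peak of the 3 background libraries. Such peaks are called outside background below, and the others at background.

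The rule was written to take promoter peaks that lie outside CpG islands, and the data went against that description. The detailed annotation named a CpG island for 0 of the promoter-TSS peaks and for 1543 other peaks on these chromosomes, so the condition on CpG islands removed no peak and the members are all autosomal promoter-TSS peaks. They are therefore called promoter-TSS peaks here, and their base composition was read from promoter sequence instead.

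The cells came from testes of adult FVB/N mice aged 10 to 16 weeks. Heat-shocked testicular cells and untreated testicular cells held at 32 °C were precipitated with a polyclonal antibody against an internal part of SPEN (8 heat-shocked libraries and 1 untreated library) or against its N-terminal part (2 heat-shocked libraries and 1 untreated library). The internal libraries covered 38 °C and 43 °C, each for 15 min, for 30 min, and for 30 min with 2 h or 4 h of recovery at 32 °C. The N-terminal libraries covered 38 °C for 15 min and for 30 min with 2 h of recovery. Spermatocytes, enriched by sedimentation to at most 80% of cells as the labels have it, were precipitated with the internal antibody untreated and after 43 °C for 30 min with no recovery, 2 h and 4 h of recovery. IgG and input from testicular cells and input from spermatocytes served as background. Each library pooled 5 to 6 precipitations, so there was 1 library per condition. No condition could be tested against another, libraries of other times or temperatures are not replicates, and every value below describes these libraries. A peak in a mixture of cells does not separate how many cells carry it from how strong it is in each. A peak list holds no expression, so the labelled cell types could not be checked against their markers.

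A promoter is the stretch of DNA around a TSS on which transcription starts. In mammals many promoters of broadly expressed genes are rich in the dinucleotide CG and often hold GC boxes, whereas many tissue-restricted promoters are poor in it. Germ cells of the testis use both kinds, and heat shock factors act on promoters of chaperone genes through short repeated elements.

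The promoter sequences that follow show both kinds among the promoter-TSS peaks of untreated testicular cells precipitated with the internal antibody. Each runs from 250 bases before to 50 bases after the RefSeq start of transcription (GRCm38.p6, the assembly of mm10), 5′ to 3′ on the gene's strand, with each CG dinucleotide in capitals. The first 4 are CG-rich: Atl1 (chr12:69892855-69893154, plus strand), which encodes the membrane-shaping GTPase atlastin, Ube2n (chr10:95514912-95515211, plus strand), which encodes a ubiquitin-conjugating enzyme, Sycp3 (chr10:88459337-88459636, plus strand), which encodes a protein of the synaptonemal complex, and Hspe1 (chr1:55087898-55088197, plus strand), which encodes a mitochondrial co-chaperonin. The last 3 are CG-poor: 2410141K09Rik (chr13:66441069-66441368, minus strand), a protein-coding gene named only by its cDNA, Trim7 (chr11:48825888-48826187, plus strand), which encodes a ubiquitin ligase of the tripartite motif family, and Rnase2b (chr14:51162010-51162309, plus strand), which encodes a secreted ribonuclease.
Atl1: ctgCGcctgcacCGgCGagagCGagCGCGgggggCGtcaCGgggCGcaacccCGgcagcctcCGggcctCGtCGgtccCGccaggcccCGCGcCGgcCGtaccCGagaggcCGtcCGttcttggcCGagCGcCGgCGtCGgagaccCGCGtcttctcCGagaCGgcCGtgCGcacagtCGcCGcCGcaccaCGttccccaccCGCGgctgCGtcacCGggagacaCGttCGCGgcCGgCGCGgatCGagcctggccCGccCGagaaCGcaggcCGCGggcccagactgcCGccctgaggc
Ube2n: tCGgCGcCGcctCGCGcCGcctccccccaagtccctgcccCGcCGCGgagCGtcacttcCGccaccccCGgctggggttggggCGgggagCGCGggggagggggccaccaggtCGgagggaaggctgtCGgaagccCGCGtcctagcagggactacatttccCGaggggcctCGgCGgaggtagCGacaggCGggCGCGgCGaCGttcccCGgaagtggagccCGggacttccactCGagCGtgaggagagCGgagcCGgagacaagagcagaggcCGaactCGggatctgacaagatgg
Sycp3: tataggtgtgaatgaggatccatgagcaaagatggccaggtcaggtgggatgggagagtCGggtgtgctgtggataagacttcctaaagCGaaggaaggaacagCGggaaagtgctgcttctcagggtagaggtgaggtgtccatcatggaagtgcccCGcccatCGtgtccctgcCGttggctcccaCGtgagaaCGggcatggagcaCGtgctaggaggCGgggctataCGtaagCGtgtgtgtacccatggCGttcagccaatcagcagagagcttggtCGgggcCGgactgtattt
Hspe1: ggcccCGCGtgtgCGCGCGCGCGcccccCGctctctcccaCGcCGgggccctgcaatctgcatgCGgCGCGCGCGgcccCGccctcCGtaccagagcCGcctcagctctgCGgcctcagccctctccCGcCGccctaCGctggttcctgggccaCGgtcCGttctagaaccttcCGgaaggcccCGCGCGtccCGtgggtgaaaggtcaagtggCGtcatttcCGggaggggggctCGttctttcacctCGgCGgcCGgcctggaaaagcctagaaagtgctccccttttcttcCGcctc
2410141K09Rik: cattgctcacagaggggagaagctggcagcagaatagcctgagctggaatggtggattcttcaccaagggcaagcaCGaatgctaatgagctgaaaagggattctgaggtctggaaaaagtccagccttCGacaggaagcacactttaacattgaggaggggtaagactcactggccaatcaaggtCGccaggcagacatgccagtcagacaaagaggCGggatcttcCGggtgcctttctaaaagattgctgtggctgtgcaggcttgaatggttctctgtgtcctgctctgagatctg
Trim7: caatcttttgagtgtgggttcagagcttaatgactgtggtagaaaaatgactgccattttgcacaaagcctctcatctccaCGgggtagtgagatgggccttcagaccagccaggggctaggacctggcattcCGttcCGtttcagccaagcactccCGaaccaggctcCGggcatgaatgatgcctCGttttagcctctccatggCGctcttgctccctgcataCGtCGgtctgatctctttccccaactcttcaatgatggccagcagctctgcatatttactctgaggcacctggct
Rnase2b: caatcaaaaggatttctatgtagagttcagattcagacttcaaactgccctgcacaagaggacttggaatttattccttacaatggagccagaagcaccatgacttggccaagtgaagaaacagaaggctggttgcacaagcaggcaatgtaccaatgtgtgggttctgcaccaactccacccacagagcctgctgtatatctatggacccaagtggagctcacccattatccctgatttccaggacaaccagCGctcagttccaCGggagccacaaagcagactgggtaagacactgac

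In these windows Atl1 had 53 CG dinucleotides, Ube2n 36, Hspe1 36 and Sycp3 15, against 9 in Trim7, 5 in 2410141K09Rik and 2 in Rnase2b. The peaks of Atl1, Ube2n, 2410141K09Rik and Trim7 covered all 300 bases of their windows. Those of Rnase2b, Sycp3 and Hspe1 covered 249, 186 and 140 bases. The Hspe1 window held 1 match to the heat shock element core GAANNTTC, where N is any base, and no other printed window did. GC boxes (GGGCGG on either strand) were found 2 times in Atl1 and in Hspe1, 1 time in Ube2n and in Sycp3, and 0 times in the CG-poor windows.

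Promoter-TSS peaks outside background were concentrated in 2 libraries. The internal antibody gave 1824 of them in untreated testicular cells (exact Poisson 95% interval 1740 to 1910, counting error only). In spermatocytes 4 h after 43 °C it gave 209 (interval 182 to 239). The other 14 SPEN lists, called short lists below, held 3 to 22 with a median of 5.5, and the 3 background lists held 3, 4 and 10, counted against each other. The 2 long lists stand apart from all other libraries, with 29315 and 9707 peaks in total against 1682 to 3590 in the short lists and 1641 to 2924 in the background lists. Read totals are unknown, so sequencing depth and binding cannot be told apart in any of these counts.

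With the internal antibody in heat-shocked testicular cells the counts outside background at 38 °C were 8 after 15 min, 22 after 30 min, 5 after 2 h of recovery and 3 after 4 h of recovery. At 43 °C they were 5, 3, 7 and 3 in the same order. All 8 lay below the 1824 of the untreated library, and the ratio of the untreated count to the heat-shocked median of 5 was 365. Among the 1000 highest-scoring peaks of each list it was 22 (11 untreated over a heat-shocked median of 0.5). The other autosomal peaks outside background numbered 365.5 in the heat-shocked median and 23908 in the untreated library, an untreated over heat-shocked ratio of 65.4. Promoter-TSS peaks made up 0.718% to 2.19% of the autosomal peaks outside background in the heat-shocked libraries and 7.09% (6.78% to 7.41%, exact binomial interval) in the untreated one, or 3.49% (11 of 315) of those among the untreated library's 1000 highest-scoring peaks.

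The N-terminal antibody gave small counts in the opposite order, with 10 promoter-TSS peaks outside background after 15 min at 38 °C, 4 after 30 min and 2 h of recovery, and 3 in untreated cells. Their Poisson intervals overlap (4.8 to 18.4, 1.09 to 10.2 and 0.619 to 8.77). The other autosomal peaks outside background ran the same way, with a heat-shocked median of 438.5 and 310 in the untreated library, so the untreated over heat-shocked ratio was 0.429 for promoter-TSS peaks and 0.707 for the others. Folder names in the file headers place the N-terminal libraries apart from the other 16, so antibody and any separate handling cannot be told apart. In spermatocytes the internal antibody gave 8 in the untreated library, 13 directly after 43 °C, 6 after 2 h and 209 after 4 h of recovery, a ratio of untreated to heat-shocked median of 0.615. That ratio was 2 among peaks with a score of at least 100 and 1 among the 1000 highest-scoring peaks of each list, so it has no stable direction, and it was 1.04 for the other autosomal peaks. Of the 3 heat-shocked libraries only the one at 4 h lay outside the Poisson interval of the untreated one (3.45 to 15.8), and its promoter-TSS peaks were 2.70% (2.35% to 3.08%) of its autosomal peaks outside background.

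**Figure D1:**
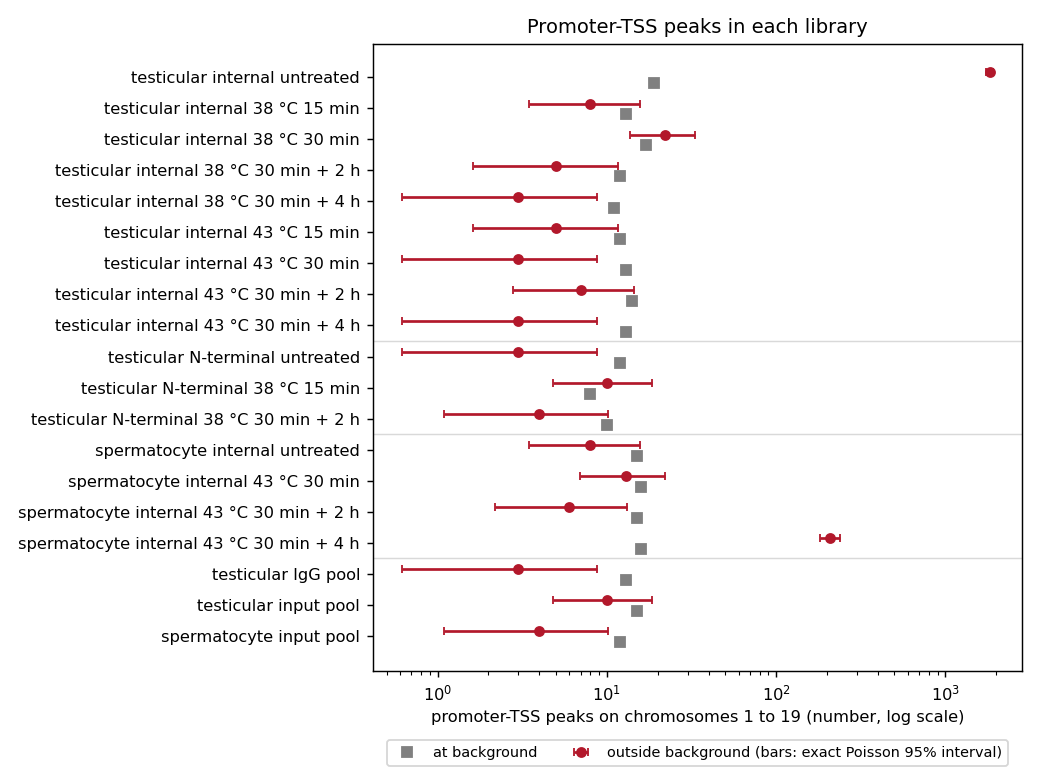
Number of promoter-TSS peaks on chromosomes 1 to 19 in each library (log axis); red points are peaks outside background with exact Poisson 95% intervals and grey squares are peaks at background. The squares stay between 8 and 19 in every library, whereas the red points reach 1824 and 209 in 2 libraries and 22 or fewer elsewhere.

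Peaks at background numbered between 8 and 19 in every library. They were 19 of 1843 promoter-TSS peaks (1.03%) in the untreated testicular library of the internal antibody, against 5.7% of its other autosomal peaks. In spermatocytes 4 h after 43 °C they were 7.11%, against 15.1% of the others. Pooled over the 14 short lists, 181 of 281 promoter-TSS peaks lay at background (64.4%, interval 58.5% to 70.0%), against 74.3% of the other peaks. Within libraries, the share at background of promoter-TSS peaks minus that of other autosomal peaks averaged -7.51 percentage points (SD 9.96 over 16 SPEN libraries) and was below 0 in 11 of the 16. A two-sided exact permutation test that flips the sign of each library's difference gave p = 0.00757, and 0.0151 after Benjamini-Hochberg adjustment over 4 such tests. Among peaks with a score of at least 100 the difference was -4.07 points, with an exact permutation p of 0.0555. The lists share many positions, so the libraries are not independent and this p is smaller than independent samples would give.

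The positions at background belonged to few genes. Their 28 genes included 4 that had such a peak in all 19 libraries, IgG and inputs among them. At Mir466d, a microRNA gene, scores ran from 742 to 1406 over the 19 libraries, and at 4931408C20Rik from 315 to 1029. At Oasl1, which encodes a protein of the oligoadenylate synthetase family, they ran from 241 to 953. At Mir6236 they ran from 525 to 931, and in 16 of 19 libraries the peak covered the whole mature microRNA (chr9:110281353-110281371, plus strand), printed here with its seed in capitals because it is the shortest transcript that marks these positions.
miR-6236: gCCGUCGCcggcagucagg

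The highest score outside background, 1001, lay within the ranges of Mir466d and 4931408C20Rik, so a high score alone did not set a SPEN library apart from IgG or input. Dux, which encodes a double homeobox factor of the early embryo, had a peak at background in 14 libraries with scores of 53.2 to 381. Crebzf, a bZIP transcription factor gene, had one in 16 libraries with 80.5 to 439.

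A difference in score between promoter-TSS peaks and other peaks was not detected. The median score was 63.9 for promoter-TSS peaks and 63.5 for other autosomal peaks in the untreated testicular library, and 59.5 and 61.5 in spermatocytes 4 h after 43 °C. Over the 16 SPEN libraries the median differed by 8.51 on average (SD 22.8), higher in 9 libraries and lower in 7, with an exact two-sided sign-flip permutation p of 0.152 (0.152 adjusted). Among peaks with a score of at least 100 it differed by 234 (exact permutation p = 0.0036). In the short lists 0 to 2 promoter-TSS peaks outside background reached that score, so the difference there rests mostly on peaks at background. The score is the authors' peak caller value, its lowest value was 50.0 to 50.02 in the lists, and 12.9% of the 1824 peaks of the untreated library reached 100. As a substitute for CpG island promoters, which the annotation did not yield, peaks outside promoters that the annotation placed in CpG islands were used. In the 12 libraries with at least 5 of each, the median score of promoter-TSS peaks was lower by 91.7 on average (difference -91.7, SD 107) and lower in 11 of 12 (exact sign-flip permutation p = 0.00195, adjusted 0.00781). In the 2 long lists that difference was small, with medians of 63.9 for promoter-TSS peaks and 68.1 for CpG island peaks in the untreated testicular library, and 59.5 and 60.3 in spermatocytes at 4 h. The short lists held 3 to 29 CpG island peaks each. Peaks at background were kept in both classes. They were 20.7% to 100% of the CpG island peaks in the short lists, against 0.697% and 6.2% in the 2 long lists. The lists share many positions, so the libraries are not independent and p in these score tests is smaller than independent samples would give. The share at background differed by -6.02 percentage points on average between the same classes, with an exact permutation p of 0.0972 (adjusted 0.13).

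The promoter-TSS peaks of untreated testicular cells were mostly at CG-rich promoters. A window was called CG-rich when at least 50% of its 300 bases were G or C and its CG count was at least 0.6 of the number expected from its base content. Of the 1764 peaks outside background on chromosomes for which windows were read, 1438 (81.5%) had a RefSeq window of the same gene. Its start of transcription lay within 1000 bp of the peak centre, and the peak did not have to overlap the window. Of these 1438, 1199 were CG-rich (83.4%, interval 81.4% to 85.3%), against 34.1% of the 31396 windows of all annotated genes. The windows of the 1438 peaks had a median of 65.7% G and C and 26 CG dinucleotides, against 53.0% and 7 in all windows. All windows were not limited to protein-coding genes, at which most of the peaks lay, so these contrasts are not matched for gene type. In the other sets too few peaks had a window (78.2% in spermatocytes at 4 h, 53.1% in the short lists and 63.9% at background, all below 80%), so their composition is not given. The classes were chosen with the data in view.

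**Figure D2:**
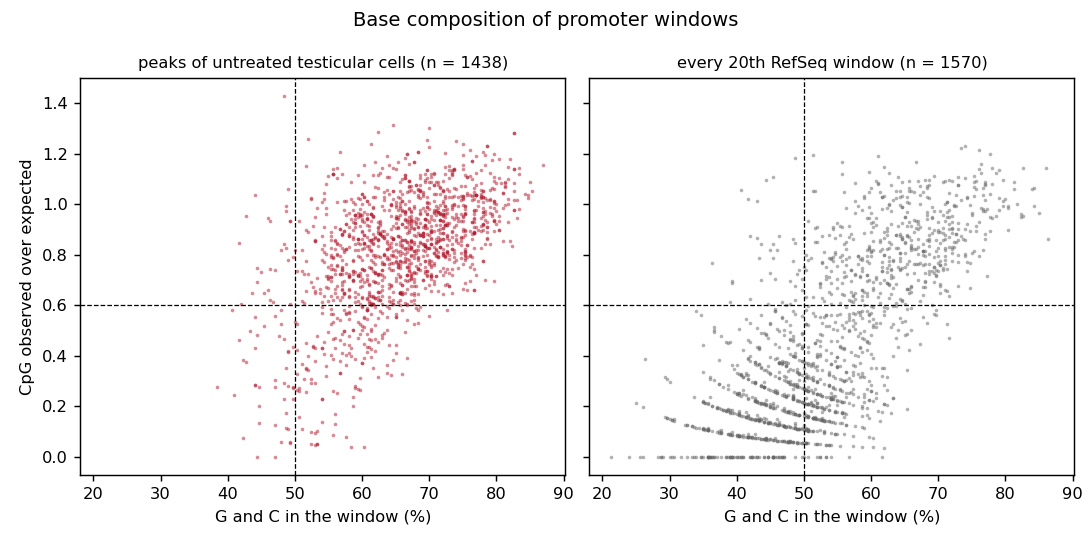
Share of G and C (x axis, %) and CG count over the number expected (y axis) of 300-base promoter windows, for 1438 promoter-TSS peaks of the untreated testicular library, internal antibody (left) and for every 20th RefSeq window (right). Dashed lines mark 50% and 0.6; 83.4% of the peaks and 34.1% of all windows lie in the upper right field.

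CG-poor members, those whose window missed either limit, did not lack strong peaks. Some windows of this class were intermediate, such as that of Timm9 with 46.0% G and C and 0.946 of the expected CG count. The 239 CG-poor peaks had a median score of 58.7 and the 1199 CG-rich peaks one of 64.5. A score of at least 100 was reached by 9.62% (6.2% to 14.1%) of the CG-poor and 13.1% (11.2% to 15.1%) of the CG-rich peaks. The highest CG-poor scores were 294 at 2410141K09Rik, whose window was printed above with 5 CG dinucleotides, 261 at Trim7 and 189 at St6gal2, a sialyltransferase gene. The highest CG-rich scores were 306 at Atl1, 244 at Ube2n and 234 at 4930433N12Rik. The CG-poor peaks lay within 100 bp of the TSS in 57.3% (50.8% to 63.7%), against 43.7% (40.9% to 46.6%) of the CG-rich peaks. Of the CG-poor peaks 14 (5.86%, 3.24% to 9.63%) were found again in the list of spermatocytes 4 h after 43 °C. Of the CG-rich peaks 22 were (1.83%, 1.15% to 2.76%). Both shares were below the 11.1% of the untreated library's other autosomal peaks outside background. The CG-poor ones included Gm13154, in the duplicated part of chromosome 4 described below. Zfp zinc finger genes made up 4.6% of the CG-poor and 1.58% of the CG-rich peaks.

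Short motifs were counted on both strands of the 1354 distinct windows of these peaks. GC boxes (GGGCGG) were in 72.7% of the windows of members, against 36.0% of all windows, and in 79.6% of CG-rich member windows against 75.8% of all CG-rich windows. In the CG-poor class the shares were 40.0% and 15.4%. The TATA box letters TATAAA were in 3.77% of member windows against 13.6% of all windows. CCAAT was in 33.8% against 37.3%, and the cyclic AMP response element TGACGTCA, a site bound by CREM and CREB factors, in 3.55% against 1.83%. Among CG-rich windows alone that element was in 3.66% of member windows and 3.75% of all windows. Among CG-poor windows it was in 2.98% (7 of 235) and 0.836%. CCAAT was in 31.2% against 35.2% of CG-rich windows and in 46.4% against 38.4% of CG-poor windows. The heat shock element core GAANNTTC was in 4.65% of member windows against 7.87% of all windows. TGGGAA, the core of the site of the Notch pathway factor RBPJ, was in 19.3% against 25.3%. Among CG-rich windows GAANNTTC stood at 4.2% against 4.82% and TGGGAA at 18.0% against 19.3%. GAANNTTC and TGGGAA can overlap by the letters GAA, and a match is a description of the letters in the window.

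Peaks of the untreated testicular list lay at the TSS more often than those of the short lists. In the untreated testicular library 849 of 1824 peaks (46.5%, interval 44.2% to 48.9%) had their centre within 100 bp of the TSS and 10.3% lay beyond 500 bp. In spermatocytes 4 h after 43 °C the shares were 39.7% (33.0% to 46.7%) and 12.4%. The 100 peaks of the short lists had 31.0% (22.1% to 41.0%) within 100 bp and 39.0% beyond 500 bp, close to the 29.4% and 35.3% of the 17 peaks of the background lists. Of the short-list peaks 78.0% lay upstream of the TSS, as did 82.4% in the background lists, against 50.2% in the untreated testicular library and 53.1% in spermatocytes at 4 h. Several short-list peaks share a gene and a position, so they are not independent.

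**Figure D3:**
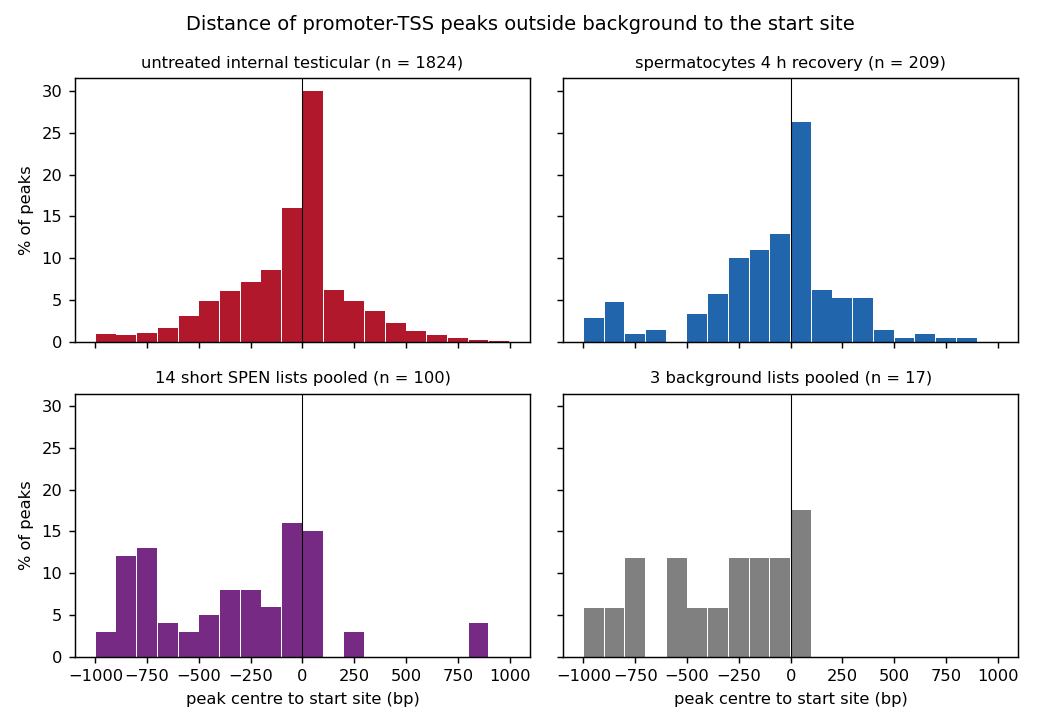
Distance from the start site to the peak centre in bins of 100 bp (x axis, bp; negative is upstream) against the share of promoter-TSS peaks outside background (y axis, %), in 4 sets of libraries. The tallest bin of the untreated library is the one from 0 to 100 bp with 30.0% of 1824 peaks, whereas the 100 short-list peaks spread over the upstream side.

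Gene types also differed between the long and the short lists. Protein-coding genes took 92.7% (91.4% to 93.9%) of the 1824 peaks in untreated testicular cells and 88.5% (83.4% to 92.5%) of the 209 in spermatocytes at 4 h. In the short lists they took 56.0% (45.7% to 65.9%), with 18 peaks at the Rn4.5s repeat gene family, 15 at non-coding RNA genes and 9 at pseudogenes. Of the 17 peaks of the background lists they took 76.5% (50.1% to 93.2%), with 0 at Rn4.5s and 0 at pseudogenes. The 1824 peaks fell on 1694 genes, of which 116 had 2 or more.

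The highest scores of the untreated testicular library lay in a duplicated part of chromosome 4. Gm13238, annotated as a pseudogene, had a score of 1001 (chr4:145836428-145837698), followed by the pseudogene Gm13034 with 500.3 (chr4:146066794-146068099) and the protein-coding gene Gm13139 with 472. The pseudogene 6820431F20Rik on chromosome 8 had 423. This stretch of 3 Mb held 13 of the 1824 peaks, 5 of the 209 in spermatocytes at 4 h and 4 of the 100 short-list peaks. Reads from near-identical copies can be placed at any of them, so which copy carries a peak is uncertain. Outside such regions high scores included those of Atl1 and 2410141K09Rik, given above.

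The highest scores of spermatocytes 4 h after 43 °C partly fell on the same genes. Gm13238 had 354, Rn4.5s 229.9, Gm13034 197, Speer8-ps1 143, Gm21190 133 and 2410141K09Rik 132. They were followed by Zfp934, a zinc finger gene, with 116, Cd244, a receptor gene of natural killer cells, with 115, and Psat1, an enzyme of serine synthesis, with 113. Zfp934, Cd244 and Psat1 had no promoter-TSS peak outside background in untreated spermatocytes. That list held 8 such peaks on 6 genes, against 209 on 204 genes at 4 h. Nearly all genes of the 4 h list thus lacked one there, and the absence is not particular to these.

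The 2 long lists shared a smaller part of their promoter-TSS peaks than of their other peaks. Of the 209 promoter-TSS peaks of spermatocytes at 4 h, 57 (27.3%, interval 21.4% to 33.8%) shared a base with a peak of the untreated testicular list, against 35.1% of the other peaks. In the other direction 48 of 1824 (2.63%, 1.95% to 3.47%) lay in the spermatocyte list, against 11.1% of the others. At the level of genes 59 were in both, which is 28.9% of 204 and 3.48% of 1694. Besides the duplicated genes these included H2-D1, a major histocompatibility gene, with scores of 97.3 in spermatocytes at 4 h and 123 in untreated testicular cells. Tyw5, an enzyme of transfer RNA modification, had 88.2 and 208 in the same libraries, Peg3, an imprinted zinc finger gene, 60.3 and 82.7, and Lig1, a DNA ligase gene, 54.6 and 51.5. At 38 °C for 30 min in testicular cells, 7 of 22 peaks (31.8%, 13.9% to 54.9%) lay in the untreated list, against 55.7% of the others, a share just above that interval. Over the 14 short lists the share of promoter-TSS peaks in the untreated list was above that of the other peaks in 8 and below it in 6, on 3 to 22 promoter-TSS peaks each.

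Few genes recurred. A promoter-TSS peak outside background was found at 1874 genes in any SPEN library, at 75 in at least 2, and at 17 in at least 3. Without the 2 long lists these counts were 50, 15 and 8. They included members of repeated families, such as Rn4.5s and Vmn2r-ps159, and single genes such as Tug1.

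**Figure D4:**
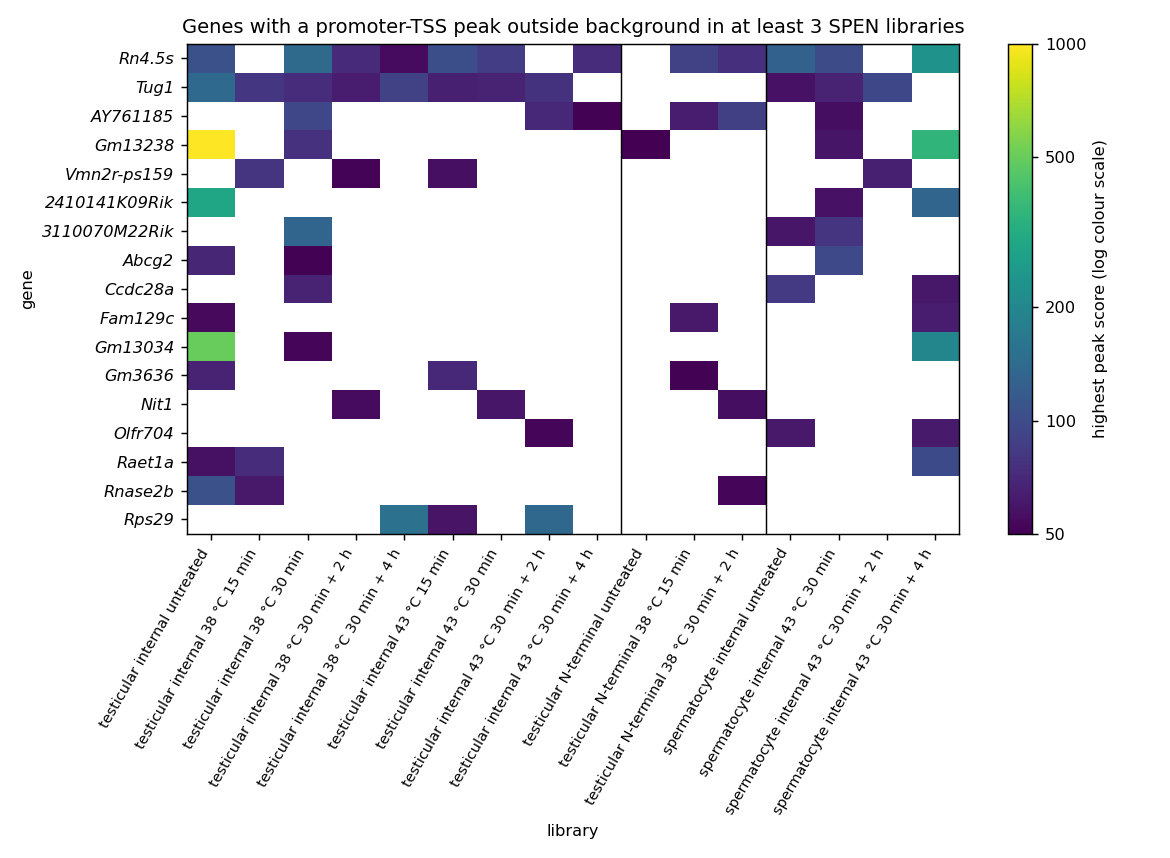
Highest score of promoter-TSS peaks outside background (colour, log scale; white is no peak) for the 17 genes that had one in at least 3 SPEN libraries (rows), in the 16 SPEN libraries (columns, testicular internal, testicular N-terminal and spermatocyte internal from left to right). Rn4.5s and Tug1 have peaks in 12 and 11 libraries, and Gm13238 reaches 1001 in the untreated testicular library.

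Tug1, a long non-coding RNA gene, had a peak outside background in 11 libraries. In 10 of them the peaks shared 65 bases (chr11:3647481-3647545). After heat shock at 38 °C their scores in testicular cells were 79.9 after 15 min, 72.8 after 30 min, 63.5 after 2 h and 89.6 after 4 h of recovery. At 43 °C they were 65.2 after 15 min, 66.9 after 30 min and 77.9 after 2 h of recovery, with no peak at these bases after 4 h. In spermatocytes the scores were 57.8 in untreated cells, 66.9 directly after 43 °C and 95.9 after 2 h of recovery, with no peak there after 4 h. The peak was thus present in untreated spermatocytes and in most heat-shocked libraries of the internal antibody. No peak of any class covered these bases in the 3 N-terminal libraries, in IgG or either input, or in the untreated testicular library. The untreated testicular library had its Tug1 peaks at another start site of the gene (chr11:3648466-3648751, score 139, and chr11:3648971-3649127, score 50.8). The 10 peak centres lay between 25 bp upstream and 71 bp downstream of the annotated TSS.

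Rn4.5s, the gene family of a small rodent nuclear RNA, had 25 peaks outside background in 12 libraries (chr6:47655560-47753529). A further promoter-TSS peak of the family, with a score of 116, lay at background in 1 SPEN library. In 11 libraries a peak shared the same 106 bases (chr6:47686082-47686187), with scores of 54.3 to 229.9, the highest in spermatocytes 4 h after 43 °C. The untreated testicular library had a peak over these bases as well, with a score of 307, which was annotated as intergenic and so was not counted. The IgG and both input lists had none there, nor did the other 4 SPEN libraries, the untreated N-terminal one among them. Copies of a gene family share reads, so the copy is uncertain.

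Rps29, which encodes a protein of the small ribosomal subunit, had a peak with the internal antibody in 3 libraries of heat-shocked testicular cells, with scores of 155 after 38 °C and 4 h of recovery, 138 after 43 °C and 2 h of recovery, and 58.7 after 15 min at 43 °C. The 3 peaks shared 139 bases (chr12:69159451-69159589), 255 to 357 bp upstream of the TSS by their centres. The untreated testicular library had no promoter-TSS peak at Rps29. Ribosomal protein genes have many processed copies in the genome, so the origin of its reads is uncertain. AY761185, in a duplicated region of chromosome 8, had peaks in 6 SPEN libraries with scores of 51.0 to 94.1. Of these libraries 5 were testicular and heat-shocked and 1 was of spermatocytes directly after 43 °C. Most SPEN libraries were heat-shocked, and peaks of other classes at this gene were not considered. Vmn2r-ps159, a vomeronasal receptor pseudogene, had a peak in 4 libraries with 51.7 to 79.7.

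Among the remaining genes found in at least 3 libraries were a transporter, a ribonuclease and 2410141K09Rik. Abcg2, an efflux transporter gene, had 50.8 in testicular cells after 30 min at 38 °C, 97.3 in spermatocytes directly after 43 °C and 69.3 in untreated testicular cells, and the 3 peaks shared 164 bases (chr6:58596269-58596432). Rnase2b had 61.7 after 15 min at 38 °C with the internal antibody, 52.2 after 38 °C and 2 h of recovery with the N-terminal antibody and 106 in untreated testicular cells. Its peaks shared 161 bases within the printed CG-poor window (chr14:51162107-51162267). 2410141K09Rik had 58.2 directly after 43 °C and 132 after 4 h in spermatocytes, and 294 in untreated testicular cells.

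Some genes had a promoter-TSS peak after heat shock and no promoter-TSS peak in the untreated library of the same antibody and cells. Peaks of other classes were not considered here. In the heat-shocked internal testicular libraries 12.5% to 40.0% of promoter-TSS peaks outside background shared a base with the untreated list. The other autosomal peaks did so in 20.0% to 55.7%, so absence from that list was common in both. With the internal antibody in testicular cells, Rps29, AY761185 and Vmn2r-ps159 had one in 3 of 8 heat-shocked libraries and Nit1, an amidase gene, in 2. The promoter of Sp3, a factor that binds GC boxes, had one in 1 heat-shocked library with 57.0, and Mrpl49, a mitochondrial ribosomal gene, in 1 with 58.8. Other genes found in 1 of these libraries scored higher, up to 132.

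Among the listed chaperone genes, promoter-TSS peaks were found in the untreated testicular library of the internal antibody and not after heat shock. Of 34 autosomal heat shock and co-chaperone genes 4 had one there (11.8%, interval 3.3% to 27.5%), beside 7.57% of all 20665 autosomal protein-coding genes. They were Hspe1 with a score of 132, Hspa9, the mitochondrial member of the Hsp70 family, with 76.2, Hsp90b1, the chaperone of the endoplasmic reticulum, with 54.2, and the heat shock factor gene Hsf2 with 53.0. None of the 34 had one in the 14 short lists or in spermatocytes at 4 h, where 0.876% of protein-coding genes had one. The list does not hold every co-chaperone gene. Dnajc6, which is not in it, had a peak of 50.5 in the untreated N-terminal library. The short lists lack nearly all peaks of the untreated list, so a peak absent there does not show a change at these genes.

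Genes of SPEN's known partners had few promoter-TSS peaks. The list of SPEN, its corepressors and nuclear receptors had 27 genes, of which 3 had a peak in untreated testicular cells (11.1%, 2.35% to 29.2%), namely Ncor1 with 59.1, Hdac2 with 58.0 and Tbl1xr1 with 50.2, which encode parts of corepressor complexes. Of 27 Notch genes 1 did (3.7%), the target gene Hey2 with 52.3. The exact 95% interval of each list holds the 7.57% of all protein-coding genes. The Notch feedback inhibitor gene Nrarp had a peak in testicular cells after 30 min at 38 °C with 51.8 and no promoter-TSS peak in the untreated library.

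Of 24 germ granule and piRNA genes 5 had a peak in untreated testicular cells (20.8%, 7.13% to 42.2%). This interval holds the 7.57% of all protein-coding genes. Tdrd3, a Tudor domain gene, had peaks of 143 and 93.0. Tdrkh, needed for piRNA trimming, had 79.2, Pld6, a mitochondrial piRNA factor, 65.7, Henmt1, which methylates piRNA ends, 61.1, and Rnf17, a Tudor domain protein of germ granules, 50.5. Of 39 meiotic prophase genes 3 had one (7.69%, 1.62% to 20.9%), namely Sycp3 with 94.2, the recombination gene Rad51c with 72.0 and Mei4, needed for meiotic DNA breaks, with 53.7. Of 39 spermatid genes 1 had one, the flagellar tektin gene Tekt1 with 90.0, and of 18 spermatogonial genes 1, Id4, with 59.5. In spermatocytes at 4 h the lists had Tex12, a synaptonemal complex gene, with 51.9 and the smooth muscle actin gene Acta2 with 60.0.

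Markers of other cells and of stress had none in the untreated testicular library: 0 of 16 Sertoli cell genes (upper bound of the exact interval 20.6%), 0 of 22 Leydig, peritubular and blood cell genes (15.4%), 0 of 23 apoptosis and p53 genes (14.8%) and 0 of 21 constitutive genes (16.1%). Each upper bound exceeds 7.57%, so none of these lists could be told apart from all genes. Olfactory and vomeronasal receptor genes had 4 of 1458 (0.274%, 0.0748% to 0.701%). Zfp zinc finger genes had 34 of 388 (8.76%, 6.14% to 12.0%), with Zfp600 at 166 and Zfp266 at 138 among the highest. Mitochondrial ribosomal protein genes had 7 of 78 (8.97%) and cytosolic ones 6 of 76 (7.89%). In spermatocytes at 4 h the Zfp genes had 8 (2.06%) and cytosolic ribosomal protein genes 4 (5.26%), beside 0.876% of all.

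**Figure D5:**
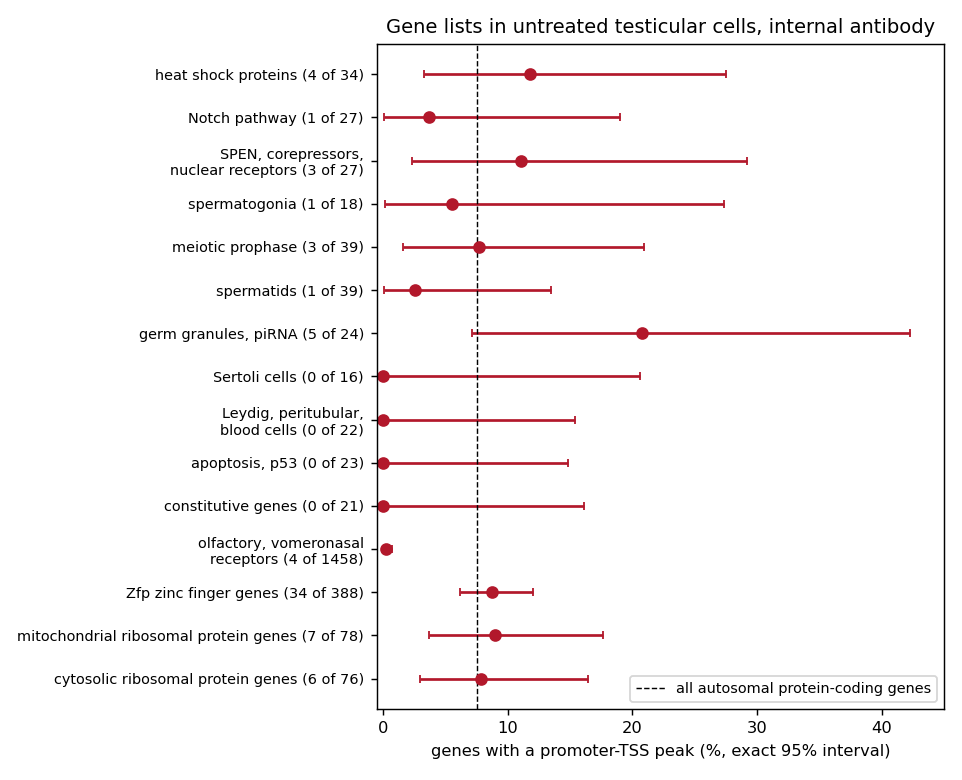
Share of genes of each list (rows) with a promoter-TSS peak outside background in the untreated testicular library of the internal antibody (x axis, %; bars are exact binomial 95% intervals for counting error). The dashed line is the 7.57% of all autosomal protein-coding genes; only the interval of the olfactory and vomeronasal receptor genes, at 0.274%, does not include it.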

How the data were processed

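SPEN ChIP-seq was analysed in 19 libraries, 1 per condition. The submitters' processing notes name Bowtie2, SAMtools, HOMER and the build mm10, without versions. Peak names carry MACS, each list belongs to 1 library, and HOMER annotated the lists, per the file headers; the caller's threshold and control are not given in the sources used here. Score and distance to the TSS are the authors' deposited values, and sequencing depth is unknown. Peaks with at least 1 bp in common were counted as shared. Groups came from the labels. Promoter windows and the microRNA sequence are from RefSeq (GRCm38.p6); windows on chromosome 18 were not used here. Intervals are exact (Clopper-Pearson or Poisson, 95%) and cover counting error only. Within-library differences were tested by exact sign-flip permutation (scipy 1.17.1, numpy 2.4.6, pandas 2.3.3, Python 3.11.15; figures with matplotlib 3.10.9) in libraries with at least 5 peaks of each class, and the test was tested on simulated data.

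The members and lists were chosen with earlier results of these data known. The 11 gene lists held 303 genes, of which 298 were in the RefSeq table and 286 on chromosomes 1 to 19. Named genes followed a rule: the 3 highest scores per SPEN library (10 where over 100 peaks), up to 15 recurrent genes, up to 5 per gene list, up to 10 found after heat shock alone, and up to 3 per receptor and Zfp family. Genes shared by the long lists, at background or by CG class were named after their values were seen, as were the CG classes, the ribosomal families and the substitute for CpG island promoters. The planned comparisons with CpG island promoters had no such peaks and were replaced by that substitute. Alternatives are listed in the closing section. 1 gene that met the rule is not reported here.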

Additional observations from a re-analysis of the deposited data

Results flagged for a closer look

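Counts of promoter-TSS peaks outside background moved in opposite directions with the 2 antibodies in testicular cells: all 8 heat-shocked libraries of the internal antibody lay below the untreated one (3 to 22 against 1824), and both of the N-terminal antibody lay above it (10 and 4 against 3). The untreated over heat-shocked ratio was 0.429 with the N-terminal antibody and 365 with the internal one. The other autosomal peaks outside background ran the same way, with ratios of 0.707 and 65.4, so the order is not particular to promoter-TSS peaks. The difference was not tested, since each condition had 1 library, and the N-terminal counts had overlapping Poisson intervals.

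Promoter-TSS peaks on the X chromosome lay outside the main measurement. The untreated testicular library of the internal antibody had 6, beside 1843 autosomal promoter-TSS peaks. The 14 short lists had 0 to 3 beside 14 to 39 autosomal ones, and IgG and the inputs 0 to 3 beside 16 to 25. Spermatocytes at 4 h had 3 beside 225. The count of 6 came from by far the longest list, so it does not show an excess on the X chromosome. A difference in share was not tested. The Y chromosome had 0 in every library.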

How the results depend on the processing

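The alternatives were a score of at least 100, at least 50% of a peak's bases at background, no members in repeats, no duplicated regions, a 500 bp limit to the TSS, the 1000 highest scores of each SPEN list, and 10 peaks per library; leaving out the 2 longest lists and the CpG island substitute were added after seeing the data. Of 52 recomputed values 37 kept their side of the test's threshold or, where there was no test, stayed within their interval or within 1.5 times of a count. No tested difference changed sign. Leaving out members in repeats removed none, because the detailed annotation names no repeat for promoter peaks. The limit of 10 peaks per library removed none either, because every SPEN list had at least 14 members. The values of these settings could not differ from the main ones, and they are counted among the 37.

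With a score of at least 100, the spermatocyte ratio of untreated over heat-shocked was 2, on the other side of 1 from the 0.615 without the limit. The share at background differed by -4.07 percentage points (exact permutation p = 0.0555), and recurrent genes numbered 6 instead of 75. The median score differed by 234 (exact permutation p = 0.0036), which in the short lists rests mostly on peaks at background. The member shares were 6.18% in untreated testicular cells and 1.99% in spermatocytes at 4 h. The N-terminal ratio had no value there, since its heat-shocked median was 0. Within 500 bp of the TSS the median score differed by 43.8 (exact permutation p = 0.0208) and the untreated share was 6.36%. With the 1000 highest scores the ratios were 22 with the internal and 0 with the N-terminal antibody in testicular cells and 1 in spermatocytes (3 untreated over a heat-shocked median of 3), the median score differed by 189.7 (exact permutation p = 0.00766), recurrent genes numbered 7, and the shares were 3.49% and 1.36%. Without the 2 longest lists 15 genes recurred. The cause was not tested. The test of the share at background kept its call in the other settings that could change it, with exact permutation p from 0.0172 to 0.0451.

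No paired analysis was possible because each condition had 1 library and no replicate numbers were shared. Counts of 3 to 22 peaks limit every statement on the short lists, and read depth is unknown.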
